A study of Mus musculus with 2 samples.

Results

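A named set of hairpins of the imprinted Dlk1-Dio3 region that lie upstream of Mir379 was examined in the newborn mouse midbrain. They are 10 microRNA genes on the plus strand of chromosome 12: Mir493, Mir337, Mir540, Mir665, Mir431, Mir433, Mir127, Mir434, Mir136 and Mir370. They were taken by name and position with no rule on their counts, though earlier results of these data were known. Another 11 microRNA rows that GENCODE places between Meg3 and Mir379 are not members and are described after them. Gene identifiers of the deposited tables were matched to GENCODE symbols, and 9 of the 10 hairpins had a row among the 1973 microRNA genes. Mir136 had no row under its own identifier, and its locus is described separately. The series has 1 group of 2 animals of the B6NCrl strain, pup 1 and pup 3, both at postnatal day 0, with no treatment or genotype named in the labels. Each library was made from the total RNA of a single midbrain, and reads were under 30 bases. Sex was not collected, and both pups carry the same donor identifier in the labels, so the spread given here is that between 2 pups as labelled.

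The Dlk1-Dio3 region is expressed by parent of origin. The protein-coding genes Dlk1, Rtl1 and Dio3 are active on the paternal chromosome, and the noncoding RNAs Meg3 and Rian, the transcript antisense to Rtl1 and the microRNAs are active on the maternal chromosome. Rtl1 is a retrotransposon-derived gene needed in the placenta, and the microRNAs cut from its antisense transcript are fully complementary to its messenger RNA, which they can cleave. A microRNA hairpin is cut into a 5p and a 3p arm, and bases 2 to 8 of the loaded arm, the seed, lead target recognition.

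The name Rtl1 antisense group holds for only part of these hairpins. By GENCODE M21 on GRCm38 (mm10), Mir431, Mir433, Mir127, Mir434 and Mir136 lie opposite the coding exon of Rtl1, within 4.9 kb. Mir493, Mir337, Mir540 and Mir665 lie between Meg3 and Rtl1 and, microRNA genes aside, within no other annotated gene. Mir370 lies in an intron of Rian, 22869 bases beyond Mir136. From Mir493 to Mir370 the hairpins span 38.1 kb, and a further 90.7 kb separate Mir370 from Mir379.

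The arms of the 5 hairpins opposite Rtl1 are shown because their complementarity to that gene sets them apart from the other members. The sequences are those of RefSeq on GRCm38.p6, all on the plus strand, with the seed in capitals.
mmu-miR-431-5p, chr12:109590459-109590479: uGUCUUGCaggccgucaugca
mmu-miR-431-3p, chr12:109590502-109590523: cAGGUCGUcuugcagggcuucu
mmu-miR-433-5p, chr12:109591729-109591750: uACGGUGAgccugucauuauuc
mmu-miR-433-3p, chr12:109591781-109591802: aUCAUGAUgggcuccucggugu
mmu-miR-127-5p, chr12:109592854-109592875: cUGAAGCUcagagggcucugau
mmu-miR-127-3p, chr12:109592888-109592909: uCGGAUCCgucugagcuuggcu
mmu-miR-434-5p, chr12:109594528-109594549: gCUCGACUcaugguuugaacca
mmu-miR-434-3p, chr12:109594565-109594586: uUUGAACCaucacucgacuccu
mmu-miR-136-5p, chr12:109595331-109595352: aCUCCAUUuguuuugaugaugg
mmu-miR-136-3p, chr12:109595366-109595387: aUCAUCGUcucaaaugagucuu
The seeds of these 10 arms all differ from one another.

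All 10 hairpins and their 20 arms were found in the RefSeq table. Full-length complements of 10 arms, those of the 5 hairpins opposite Rtl1, were found in the Rtl1 transcript, and all 10 sites lie in its coding sequence. For the arms of Mir431, Mir433, Mir127 and Mir434, Rtl1 was the only gene with such a site among the GENCODE M21 transcripts. For the arms of Mir136 the hairpin Mir3071, annotated on the other strand of the same locus, also held it, and for those of Mir337 the opposite-strand hairpin Mir3544 did. The remaining 8 arms, of Mir493, Mir540, Mir665 and Mir370, had no full complement in any transcript of that annotation. The site of miR-127-3p covers bases 2495 to 2516 of the Rtl1 coding sequence, counted from the start codon, with the bases opposite the seed in capitals.
Rtl1 site of miR-127-3p: agccaagcucagacGGAUCCGa
From the start codon on, the sites run in the order Mir136, Mir434, Mir127, Mir433 and Mir431, the last ending at base 4945. The full hairpins of the highest and the lowest of the 9 counted members are shown for comparison, with the annotated arms in capitals.
Mir127, chr12:109592846-109592915: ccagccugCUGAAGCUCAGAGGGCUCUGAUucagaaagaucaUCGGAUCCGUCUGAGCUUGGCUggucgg
Mir493, chr12:109580233-109580315: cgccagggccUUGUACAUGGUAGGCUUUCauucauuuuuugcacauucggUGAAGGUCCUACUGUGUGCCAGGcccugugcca
The tables count reads per hairpin, so the arms cannot be separated.

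The libraries held 2337113 own-strand counts on genes in pup 1 and 3195277 in pup 3. Levels are CPM, own-strand counts per 1000000 such counts of the library, and means carry the SD over n = 2 pups. A further 38.7% and 39.8% of the reads mapped to several places and were counted in no gene. None of the 10 members shared a run of 20 bases in the same sense with another hairpin of the RefSeq table, and the rest of the genome was not searched. As a check of the tissue label, the neuronal Mir137 had 24297 ± 3132 CPM, the endothelial Mir126a 33142 ± 4309 CPM and the red cell Mir451a 58.7 ± 39.2 CPM. The tissue is bulk, so fewer cells of a type and less RNA per cell cannot be told apart.

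The 9 counted members all reached 10 counts in both libraries and were called detected, as were 18.2% of all 1973 genes. Together they held 2.86% of the counts in pup 1 (exact Clopper-Pearson 95% interval 2.83 to 2.88) and 2.97% in pup 3 (2.95 to 2.98), a mean of 2.91% ± 0.0779. Molecular identifiers were not used, and the intervals cover counting error only. The 4 counted hairpins opposite Rtl1 made up most of it, with 2.42% ± 0.0649. The 4 hairpins between Meg3 and Rtl1 held 0.244% ± 0.0280, and Mir370 alone held 0.241% ± 0.0150.

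Mir127, the best known of the microRNAs complementary to Rtl1, was the highest. It had 27929 counts in pup 1 and 38178 in pup 3, or 11950 and 11948 CPM, and ranked 16 of all genes by mean CPM, 19 in pup 1 and 16 in pup 3. The pups were level in CPM, where only the library total is divided out. It made up 41.9% of the group's counts in pup 1 (interval 41.5 to 42.2) and 40.3% in pup 3 (40.0 to 40.6). In mean CPM its nearest genes were Mir135b, next above at 13579 ± 186 CPM, and Mir22, next below at 11706.5 ± 1117 CPM. Mir22 was above Mir127 in pup 1 (12497 CPM) and below it in pup 3.

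Mir434, whose arms lie nearest the start codon of Rtl1 among the counted hairpins, was second. It had 10364 and 15522 counts, or 4435 and 4858 CPM. Both values lay below those of Mir127, and the ratio of the means was 2.57.

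Mir431, known to act on the Wnt antagonist Kremen1 in neurons, had 8614 and 13282 counts, or 3686 and 4157 CPM. Mir433, studied as a repressor of the growth factor Fgf20, had 8687 and 11956 counts, or 3717 and 3742 CPM. Their order differed between the pups, Mir433 being the higher in pup 1 and Mir431 in pup 3, so these neighbours did not differ beyond their spread. Both stayed below Mir434 in both pups.

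Levels of the hairpins between Meg3 and Rtl1 were lower. Mir337 led them with 3051 counts in pup 1 and 5044 in pup 3, or 1305 and 1579 CPM. Mir665 had 1225 and 1881 counts, or 524 and 589 CPM, and Mir540, which lies 194 bases beyond Mir337, had 872 and 1387 counts, or 373 and 434 CPM. All 3 were higher in pup 3, as were 176 of the 286 genes averaging 50 or more counts by CPM. This direction is not read as a property of these hairpins. Their ranges did not overlap each other.

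Mir493, the most upstream member, was the lowest of the group. It had 96 counts in pup 1 and 122 in pup 3, or 41.1 and 38.2 CPM, and ranked 264. The next member up, Mir540, lies 5.8 kb away and had 10.2 times its mean level.

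Mir370, the only member within Rian, had 5891 and 7378 counts, or 2521 and 2309 CPM, the higher value in pup 1. It stood between the group opposite Rtl1 and Mir337, with no overlap with either neighbour in the order.

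**Figure D1:**
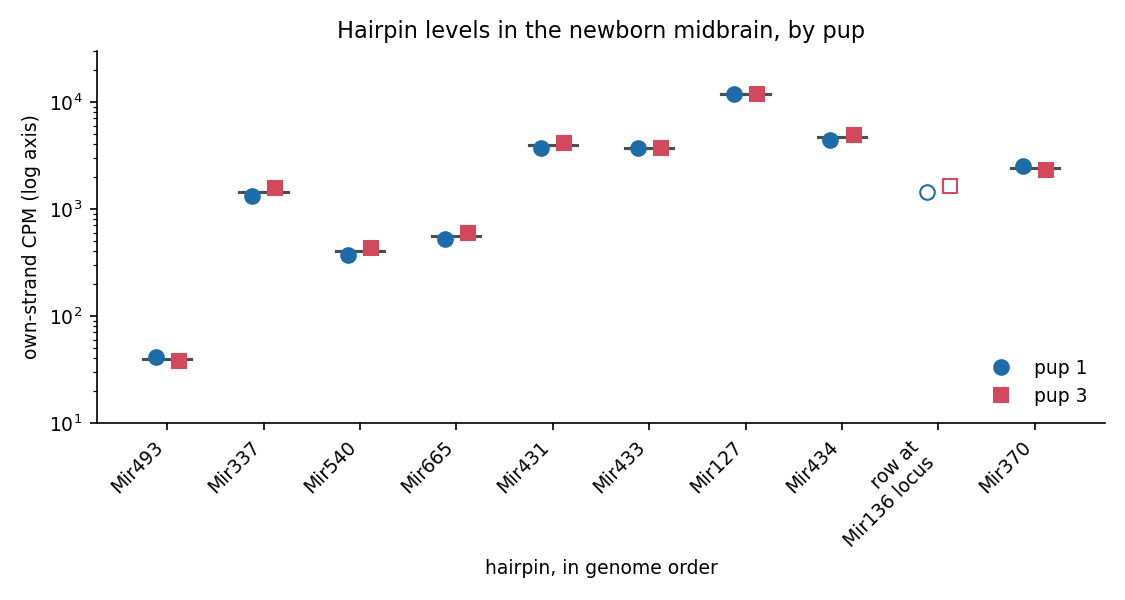
Own-strand CPM on a log axis for each hairpin in genome order, with circles for pup 1, squares for pup 3 and a bar at the mean. Open symbols mark the table row at the locus of Mir136, which has no row of its own. Mir127 stands highest near 11949 CPM and Mir493 lowest near 39.6 CPM, and the pups lie close together at each hairpin.

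In the order Mir127, Mir434, Mir431, Mir433, Mir370, Mir337, Mir665, Mir540 and Mir493, Mir431 and Mir433 were the only neighbours whose pups overlapped. The order of the other 7 was the same in both pups. With 2 pups, overlap or its lack only describes the values and is no test of a difference. A read stands for a whole mature RNA, so levels were not divided by length. Whether each RNA yields reads equally was not measured, so this is an order of read counts, not of molecules. Dividing by the hairpin length of 67 to 124 bases would put Mir370 above Mir433 and Mir540 above Mir665.

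**Figure D2:**
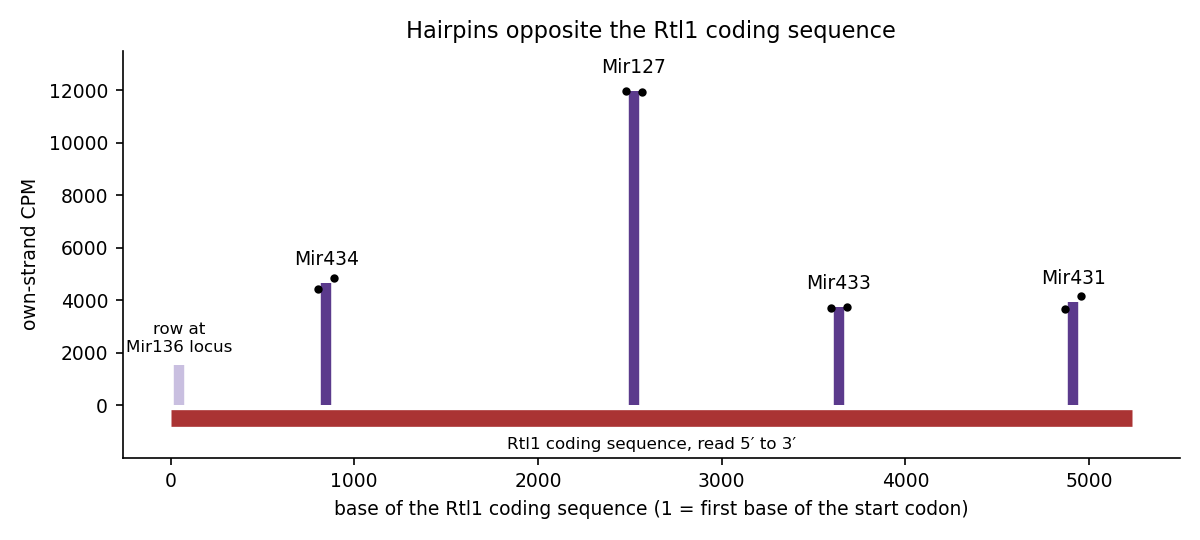
Own-strand CPM of the hairpins opposite the Rtl1 coding sequence, placed by their base in that sequence (1 is the first base of the start codon). Bars are means over the pups and points the pups, pup 1 on the left. Mir127, in the middle of the coding sequence, is 2.57 times as high as Mir434, the next, and the pale bar is the row at the locus of Mir136.

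The locus of Mir136, on chromosome 12 from 109595327 to 109595388, was counted under an identifier whose gene is not certain. The tables hold ENSMUSG00000070129.1, while GENCODE M21 gives version ENSMUSG00000070129.2 to Mir3071, on the minus strand from 109595318 to 109595397, and gives Mir136 the separate identifier ENSMUSG00000104858.1. This row had 3387 own-strand counts in pup 1 and 5227 in pup 3, or 1449 and 1636 CPM, and 0 and 1 counts on the opposite strand. All but 1 of its reads therefore came from a single strand. If the annotation used for counting placed the gene on the plus strand, they are reads of Mir136, and if it placed it on the minus strand, of Mir3071. Which holds cannot be told apart here, since the M4 annotation was not used, and no level is given to Mir136. The hairpin of Mir136 lies whole within the reverse complement of that of Mir3071, and the 3p arm of Mir3071 is shown for comparison with miR-136-5p above.
mmu-miR-3071-3p, chr12:109595329-109595350, minus strand: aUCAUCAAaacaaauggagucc
Counted as a member, the row would raise the group to 3.06% ± 0.0911 of counts and would stand between Mir370 and Mir337 by its mean of 1543 ± 132 CPM, with pups that overlap those of Mir337.

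The strand of the reads was clear at the other hairpins opposite Rtl1. At Mir431, Mir433, Mir127 and Mir434 the own strand held 55594 counts in pup 1 and 78938 in pup 3, and the strand of Rtl1 held 0 in both. A count of 0 was taken to allow 3 counts, which would be 0.00540% and 0.00380% of the own-strand counts. Among the 9 counted members opposite-strand counts occurred at Mir337 alone, with 9 in pup 1 and 15 in pup 3. Mir3544 is annotated on that strand of Mir337 and had no row among the identifiers matched to GENCODE M21. Rtl1 messenger RNA itself is not measured by these libraries of short reads.

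Ratios of pup 3 to pup 1 lay between 0.885 and 1.17 in the 9 counted members. Libraries were scaled by TMM, 0.5 was added to each count, and the 286 genes averaging 50 or more counts entered. A ratio between single libraries has no replicate check. Mir337 had the highest log2 ratio at 0.22 (95% counting interval 1.12 to 1.22-fold). Mir540 followed at 0.17 (1.03 to 1.23-fold). Mir665 was at 0.12 (1.01 to 1.17-fold). In the other direction stood Mir370 at -0.18 (0.855 to 0.916-fold) and Mir493 at -0.16. Thus 3 of the 4 hairpins between Meg3 and Rtl1 were above 0, beside 150 of the 286 genes. With 4 hairpins this count is not read as their property. The interval of Mir493, 0.682 to 1.19-fold, was the widest, as its counts were the lowest, and includes no difference.

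The 4 hairpins opposite Rtl1 lay within 0.17 of each other on the log2 scale. Mir431 was at 0.12 (1.06 to 1.12-fold) and Mir434 at 0.08 (1.03 to 1.09-fold). Mir127 was at -0.05 (0.952 to 0.981-fold), and with plain CPM at 0.00 to 2 decimals. Mir433 was at -0.04 (0.946 to 1.0004-fold, which includes no difference), and at 0.01 with plain CPM. The sign of Mir433 therefore turned with the scaling. That of Mir127 stayed below 0 under all 3 scalings, but its plain CPM value of -0.000243 is nil and lies outside its counting interval.

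**Figure D3:**
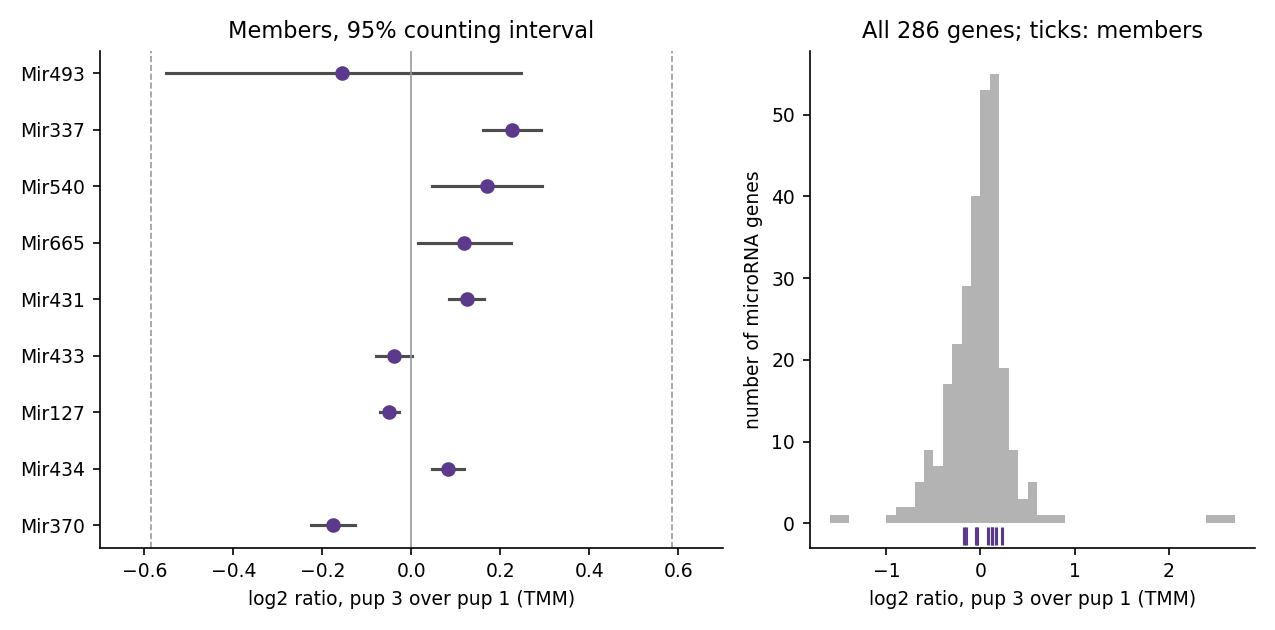
Left, TMM-scaled log2 ratio of pup 3 over pup 1 for each counted member, with the 95% counting interval as a line and dashed lines at 1.5-fold. Right, the number of microRNA genes at each log2 ratio among all 286 genes, with the 9 members as ticks. The members lie between -0.18 and 0.22, inside the main peak of all genes.

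None of the 9 members was past 1.5-fold in either direction, against 6.64% of the 286 genes. With 9 hairpins a share of 0 is near that background and is not read as a property of the group. The genes of the tissue check also differed between these pups. Mir451a had the lowest log2 ratio of the 286 genes at -1.53. Mir126a was at -0.32 and Mir137 at 0.21, both inside 1.5-fold. Single genes do not stand for a cell type. The red cell Mir144 was at 0.48. The neuronal Mir129-2 and Mir129-1 were at -0.69 and -0.68, and Mir218-1 and Mir218-2 at 0.17 and -0.12. The epithelial Mir429, Mir200c and Mir200b were at 2.46, 2.58 and 2.65, but Mir205 and Mir203 were at 0.58 and 0.14. The genes beyond the tissue check were named after their values were seen. The part of cell types in the members' ratios was not tested. The median log2 ratio of the members was 0.08, against 0.02 over all 286 genes. Without regard to sign, the median was 0.12 for the members and 0.16 over all genes. In all, 5 of 9 members were above 0 with TMM and with DESeq2 size factors, as were 150 of the 286 genes. With plain CPM, which shifts every gene upward alike, the counts were 6 of 9 and 176 of 286. The members' counts are near this background.

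The other rows placed by GENCODE M21 between the start of Meg3 and Mir379 numbered 11, the row at the locus of Mir136 included. Of them, 6 were detected. Mir770, in an exon of a Meg3 transcript, was the highest at 3834 and 3830 CPM, within the range of Mir431 and above both values of Mir433. Mir341, in an intron of Rian, had 1528 and 1816 CPM with a log2 ratio of 0.20. It lies upstream of Mir370 in the same host, and the pups differ in opposite directions at these hairpins. Mir673 had 89.7 ± 9.46 CPM and Mir1188, also in Rian, 27.8 ± 0.553 CPM.

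Low or empty rows also lay among the members. Mir3070a, between Mir665 and Mir431, had 17 and 26 counts, and Mir3070b 3 in each pup. These hairpins share a run of 20 bases with each other, and reads that map to both are counted in neither, so their levels are uncertain. Mir432, between Mir434 and the locus of Mir136 and likewise opposite the Rtl1 coding sequence, had 0 counts in both pups. So did Mir1906-1, Gm23912 and Mir882. The 3 counts that a count of 0 was taken to allow would be 1.28 CPM (pup 1) or 0.939 CPM (pup 3). That limit holds for reads that map to a single place, and shared runs were not checked for Mir1906-1 and Gm23912.

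**Figure D4:**
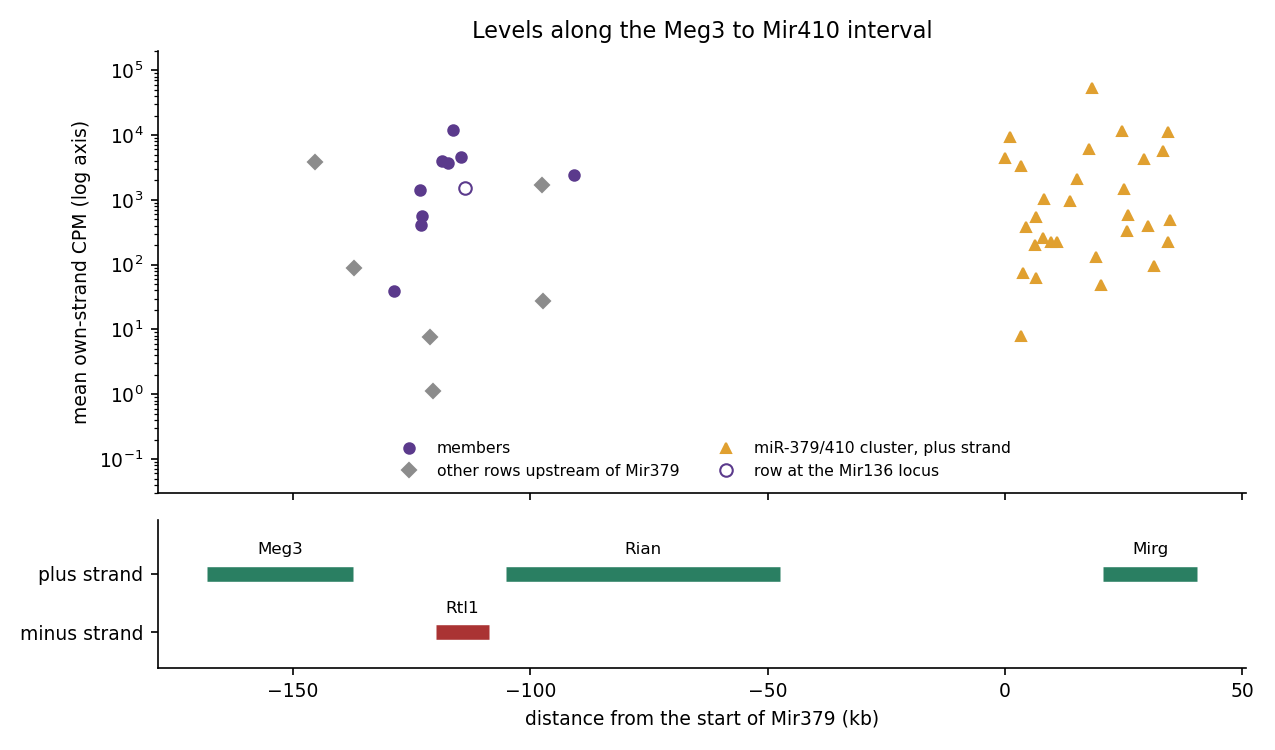
Upper panel, mean own-strand CPM on a log axis against the distance in kb from the start of Mir379, for members, other rows upstream and the plus-strand rows of the Mir379 to Mir410 cluster, leaving out rows at 0. Lower panel, the annotated extent of Meg3, Rtl1, Rian and Mirg by strand. The members opposite Rtl1 sit above those between Meg3 and Rtl1, and the cluster on the right runs from rows under 10 CPM to Mir487b at 53490 CPM.

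Compared with the cluster that runs downstream from Mir379 to Mir410, the upstream members were fewer and spanned a narrower range. The cluster had 33 plus-strand rows, of which 30 were detected, and held 11.9% ± 0.394 of the counts. Its median row had 388 CPM, against 2415 CPM for the 9 members, and its highest, Mir487b, had 53490 ± 4144 CPM. No test was made of this difference, since the hairpins of a set share their libraries and are not replicates. The sets are also unlike, so their medians and ranges are not compared like for like. The cluster takes every plus-strand row, empty ones included, while the members are a named list. The 11 other rows upstream of Mir379 had a median of 7.71 CPM and ran from 0 to 3832 CPM. Log2 ratios between pups ran from -0.65 to 0.48 over the 29 cluster rows averaging 50 or more counts, with a median of 0.08.

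In sequence the members had little in common with each other. Of the 20 arms, 18 had a seed found in no other mature sequence among the 1679 names of the RefSeq table, where 72.1% of all names do, and no seed was shared between members. The seed of miR-370-5p is also that of miR-1193-3p, from Mir1193 of the Mir379 to Mir410 cluster, and both are shown with it in capitals.
mmu-miR-370-5p, chr12:109618270-109618289: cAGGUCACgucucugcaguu
mmu-miR-1193-3p: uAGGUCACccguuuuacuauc
Mir1193 had 470 and 619 CPM in pups 1 and 3, below Mir370 in both. The seed of miR-540-3p is also that of miR-6915-5p. Arms that begin with U numbered 7 of 20, or 35.0%, against 40.9% of all names.

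Hairpin composition varied along the group. The GC content ran from 40.3% in Mir136 to 61.2% in Mir540, with a median of 54.4% over the 10 members and 51.7% over all 1005 hairpins of the table. Predicted folding energies ran from -28.2 kcal/mol for Mir136 to -49.4 kcal/mol for Mir337. Mir127, the highest in level, folded at -35.1 kcal/mol and Mir493, the lowest of those counted, at -45.0 kcal/mol.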

How the data were processed

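Small RNA reads were measured in 1 library from each of 2 midbrains, pup 1 and pup 3. The values are raw counts per gene that the authors deposited, made per the file headers from alignments to mm10 with GENCODE M4. The sources used here do not name an aligner or counter. Of 3 count columns, the own-strand column was used. A further 4 rows name no gene, held 57.2% and 56.7% of the reads, and stayed out of totals.

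Identifiers were matched without versions to GENCODE M21, which found 1894 of 1973. The other 79 have no name or position here, so they stayed in the totals but could not be placed in the region. Sequences came from RefSeq on GRCm38.p6, and hairpins were folded with ViennaRNA 2.7.2. CPM used totals over genes. Ratios used TMM factors (edgeR 4.0.16, R 4.3.3), with DESeq2 1.42.0 size factors and plain CPM as alternatives, and exact binomial intervals (scipy 1.17.1). The ratio calculation was tested on simulated data. With 1 group no test was made.

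The text names the members, every other row from Meg3 to Mir379, the leading row of the Mir379 to Mir410 cluster and the genes next to Mir127 in level. It also names genes that share a seed with a member, the marker genes of the tissue check and further cell type genes named after their values were seen. Members and lists were chosen with earlier results of these data known.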

Additional observations from a re-analysis of the deposited data

Results flagged for a closer look

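Opposite-strand counts entered no main value. At Mir337 they were above the 3 counts that a count of 0 was taken to allow. They were 9 in pup 1 and 15 in pup 3, against 3051 and 5044 on its own strand. The hairpin Mir3544 is annotated on that strand, and its part in these counts was not tested.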

How the results depend on the processing

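All 9 counted members stayed detected, and none passed the fold threshold between pups, lower and higher thresholds included, under every alternative run for these counts. The group's share of 2.91% was 2.81% with either-strand counts, 1.253% of all reads of the tables, 3.48% without the most abundant gene, Mir99a, in the total, and 2.97% or 2.86% with either pup alone. With the row at the locus of Mir136, an alternative chosen after seeing the data, 10 hairpins were detected and the share was 3.06%. The median log2 ratio of 0.08 was 0.13 with plain CPM and between 0.08 and 0.10 under the other alternatives. Plain CPM moved 4 of 9 members' ratios outside their counting intervals. Pup-alone ratios cannot be computed. Depth limits Mir493, with 96 and 122 counts, most. With 2 pups, no spread is known beyond this pair. No paired analysis was possible because the series has 1 group.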
